A study of Mus musculus with 12 samples.

Results

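The nuclear genes of the oxidative phosphorylation system were followed in RNA from mouse uterus and oviduct after estradiol (E2) or vehicle. Members were chosen by name: a gene belonged if its only annotated symbol began with Nduf followed by a, b, c, s or v, was Sdha, Sdhb, Sdhc or Sdhd, or began with Uqcr, with Atp5, or with Cox and a digit from 4 to 8. This gave 89 genes of 19938 with a symbol of their own, each read from whichever of its probe sets had the highest mean. By the textbook make-up of the complexes, 6 encode core subunits of complex I, 28 its accessory subunits, 4 complex II, 8 complex III, 18 complex IV (Ndufa4 and Ndufa4l2 among them) and 17 the ATP synthase. The other 8 carry names that the rule catches but are not counted as subunits here: the complex I assembly factors Ndufaf1 to Ndufaf7, and Cox7a2l, which joins complexes III and IV into supercomplexes. 6 probe sets annotated with several symbols (Cox7c with Gm12338, Ndufb4 with Ndufb4b, and Ndufs5 with its pseudogene) were left out.

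The study gave mice in preimplantation pregnancy daily injections under the skin from day 0.5 to day 2.5 after mating and took the tissues on day 3.5. Oil mice received sesame oil alone (0 µg/kg E2, in 100 µl), and E2 mice received 10 µg/kg E2 in the same oil. Flushed uterine horns and flushed oviducts gave 4 groups of 3 arrays, called oil or E2 uterus and oil or E2 oviduct here, with replicates numbered 1 to 3 by the sample titles. The sources used here give neither strain nor age, and do not say whether RNA was pooled or equal numbers mark the same mouse. The titles call the replicates biological, and the p-values therefore measure the spread between these samples. The question the design puts to these genes is whether added estrogen before implantation alters them in either tissue, and whether the tissues differ.

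Oxidative phosphorylation takes place in the inner mitochondrial membrane. Complexes I and II feed electrons from NADH and succinate to ubiquinone, complex III passes them to cytochrome c, complex IV hands them to oxygen, and the ATP synthase uses the proton gradient built up by complexes I, III and IV. Most subunits are encoded in the nucleus, and transcription factors such as NRF1, GABPA, YY1 and the estrogen-related receptors are known to act at their promoters. Several complex IV subunits exist as pairs of tissue-specific isoforms, of which the muscle or stress-related form usually has the narrower distribution. The uterus before implantation is remodelled under ovarian steroids, while the oviduct carries the embryos on ciliated and muscular movement.

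RefSeq promoters (build GRCm38.p6, 250 bases before to 50 after a start) were at hand for 73 of the 89 members. Those of 5 members are shown up to base 30 after the start, because their genes mark the main patterns below: Ndufaf4 had the widest spread over the groups, Uqcrc1 was lower in oviduct than in uterus under both treatments, Ndufs8 fell and Cox8a rose in the E2 uterus, and Uqcrfs1 had the lowest adjusted p for a difference in its E2 effect between the tissues. They lie at chr4:24897833-24898112 (plus strand), chr9:108936398-108936677 (plus strand), chr19:3912745-3913024 (minus strand), chr19:7217587-7217866 (minus strand) and chr13:30545287-30545566 (minus strand). Capitals mark matches to the NRF1 motif in Ndufaf4 and Uqcrc1 and to the GABPA motif in Ndufs8 and Cox8a. Uqcrfs1 holds no match to any motif searched.

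Ndufaf4: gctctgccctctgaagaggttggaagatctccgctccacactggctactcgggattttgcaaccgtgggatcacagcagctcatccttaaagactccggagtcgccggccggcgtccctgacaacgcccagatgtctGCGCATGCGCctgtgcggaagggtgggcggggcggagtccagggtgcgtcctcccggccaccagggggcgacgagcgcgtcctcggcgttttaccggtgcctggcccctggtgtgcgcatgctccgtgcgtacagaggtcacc
Uqcrc1: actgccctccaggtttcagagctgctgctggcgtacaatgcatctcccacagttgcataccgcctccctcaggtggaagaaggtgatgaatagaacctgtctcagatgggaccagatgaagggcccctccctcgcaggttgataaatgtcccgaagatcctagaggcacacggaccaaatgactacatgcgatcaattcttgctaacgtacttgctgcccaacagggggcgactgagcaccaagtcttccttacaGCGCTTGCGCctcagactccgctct
Ndufs8: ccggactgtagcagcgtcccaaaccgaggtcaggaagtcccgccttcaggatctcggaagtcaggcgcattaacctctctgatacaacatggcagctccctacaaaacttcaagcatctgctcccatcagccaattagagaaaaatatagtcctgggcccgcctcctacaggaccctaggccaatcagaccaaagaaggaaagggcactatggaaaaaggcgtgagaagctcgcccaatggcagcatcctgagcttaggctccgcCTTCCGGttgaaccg
Cox8a: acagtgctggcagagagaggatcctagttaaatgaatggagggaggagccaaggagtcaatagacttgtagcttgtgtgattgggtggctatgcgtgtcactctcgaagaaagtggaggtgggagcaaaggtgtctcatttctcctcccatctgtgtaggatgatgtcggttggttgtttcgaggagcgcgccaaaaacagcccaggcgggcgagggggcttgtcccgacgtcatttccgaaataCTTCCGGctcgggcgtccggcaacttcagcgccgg
Uqcrfs1: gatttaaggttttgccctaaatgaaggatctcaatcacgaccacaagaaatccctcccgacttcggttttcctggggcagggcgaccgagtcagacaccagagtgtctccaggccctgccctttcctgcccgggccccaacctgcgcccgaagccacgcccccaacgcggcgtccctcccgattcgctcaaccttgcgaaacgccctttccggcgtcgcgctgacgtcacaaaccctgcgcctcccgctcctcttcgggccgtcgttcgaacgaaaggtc

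The motifs were searched on both strands of whole 300-base windows, where each promoter of a gene was counted. The capitals match the motif on both strands in Ndufaf4 and on the opposite strand in Uqcrc1, Ndufs8 and Cox8a. The NRF1 motif was in 24.4% of the 78 member promoters (18 of 73 genes) and in 4.6% of all 32851 promoters. The GABPA motif CCGGAAG was in 23.1% of member promoters (18 genes) and in 8.86% of all. The YY1 motif was in 5.13% against 0.986%, and the estrogen-related receptor motif TNAAGGTCA in 2.56% against 1.28%. The palindromic estrogen response element was in 0 member promoters and in 0.07% of all. A match is a run of letters and not a site shown to be bound. Among the 18 genes with the NRF1 motif, 1 was called higher and 4 lower in the E2 uterus, and among the 55 genes with a promoter but without it, 4 were called higher and 7 lower. The 18 genes with the GABPA motif held 1 higher and 2 lower, and the 55 without it 4 and 9.

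The table gives intensities for each probe set, set on a log2 scale here, and array medians over all genes lay between 6.88 and 6.93. Member means ran from 3.87 (Cox7b2) to 12.01 (Cox6c) with a median of 8.73, and 71 members lay above the highest array median. Y-linked genes, which female mice lack, reached 7.50 (Sry) on an array, or 5.36 without Sry. 22 members had a mean under 7.50, so the size of their differences is uncertain. Among them are Cox4i2, Cox8b, Ndufa4l2, Uqcrfs1, Atp5k, Ndufa1, Ndufa5 and Ndufaf4 to Ndufaf7. The tissue labels were checked on markers: Hoxa11, a homeobox gene of the uterus, was lower in oil oviduct by 3.92 on the log2 scale, and 8 of 8 ciliated cell genes were higher there (median difference 2.53). 2 arrays stood apart in markers of other cells. Corpus luteum genes had a median of 9.44 on oil oviduct replicate 3 against 4.79 and 5.80 on the other 2 arrays of that group, and adipocyte genes had a median of 7.70 on E2 uterus replicate 3 against 5.56 and 5.70.

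Over the 4 groups the members moved little. The range of a gene's 4 group means had a median of 0.24 over the 89 members, against 0.32 over all genes and 0.41 over the 6775 other genes whose mean lay within the middle range of member levels (log2 7.51 to 9.88). No member had a range of 1 or more, while 12.4% of all genes did. 8 members (9.0%) had a range of 0.5 or more, against 32.2% of all genes and 40.6% of the genes of like level. 33 members (37.1%) stayed under 0.2, against 29.8% of all genes and 16.9% of the genes of like level. Atp5h (subunit d of the ATP synthase stalk) had the smallest range, 0.02, followed by the complex I subunit Ndufs6 (0.04) and the complex IV subunit Cox5b (0.05). Ndufs6 had a mean of 7.29, below the level of Sry, so the size of its range is uncertain. Cox5b, for example, read 10.31, 10.35 and 10.42 in oil uterus, 10.33, 10.35 and 10.33 in E2 uterus, 10.35, 10.33 and 10.42 in oil oviduct and 10.38, 10.40 and 10.38 in E2 oviduct. Its arrays overlapped between all groups except that E2 oviduct lay above E2 uterus. The widest ranges were those of Ndufaf4 (0.91), Ndufv3 (0.64), Ndufaf6 (0.61), Ndufaf3 (0.60), Atp5k (0.56) and Cox4i2 (0.55). Oil uterus was the highest group for 38 members and oil oviduct the lowest for 35, counts that were not made over all genes.

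**Figure D1:**
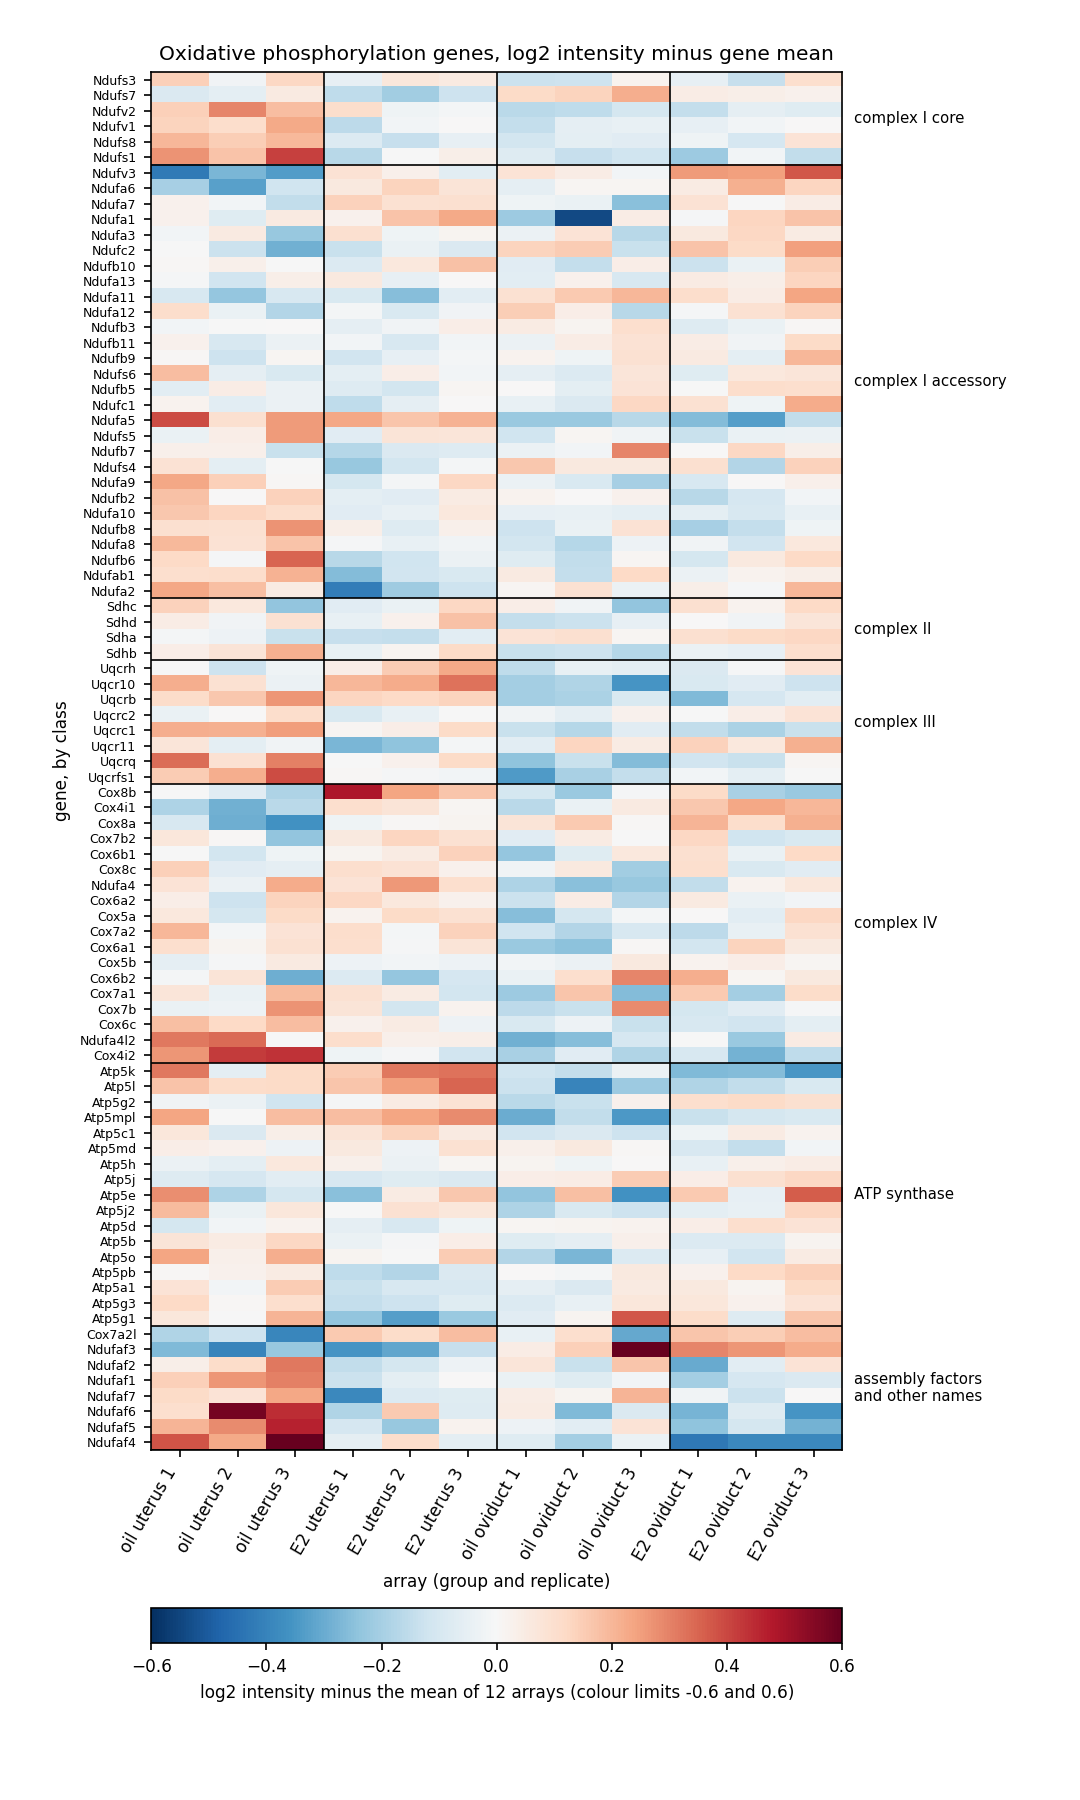
Log2 intensity of each of the 89 genes (rows, ordered by class and then by the uterine E2 difference) minus its mean over 12 arrays (columns, 3 replicates in each of 4 groups); red is above and blue below the gene's mean. Ndufv3, Cox4i1 and Cox8a were low in oil uterus, Ndufs1, Uqcrfs1, Cox4i2 and most Ndufaf genes were high there, and most other rows stayed pale, with a median range of group means of 0.24.

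In the uterus, E2 lowered 3 of 6 core subunits of complex I and 5 of its assembly factors, and raised 3 complex IV and 2 accessory complex I genes. 6 members were called higher and 15 lower (adjusted p under 0.05 in a limma fit of all 12 arrays, Benjamini-Hochberg over 19938 genes). That is 23.6% of the members, near the 26.7% called among all genes (12.4% higher and 14.3% lower) and of the 45 members within the middle level range 28.9% were called, against 39.9% of other genes in that range. The oil and E2 arrays did not overlap for 10 members that were higher and 25 that were lower, while 40.5% of all genes did not overlap (19.0% higher, 21.5% lower). The member differences ran from -0.51 to 0.38 with a median of -0.04, against -0.00 for all genes. In whole tissue, fewer cells of a type and less RNA per cell cannot be told apart. In the same arrays 7 of 8 epithelial genes were called higher (median 0.94), 4 of 6 macrophage genes higher and 6 of 6 endothelial genes lower (median -0.63). The median epithelial level lay between 8.74 and 8.95 on the oil uterus arrays and between 9.66 and 9.86 on the E2 arrays. The part of these cell types in the member differences was not tested.

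All 6 measured core subunits of complex I, among them the carriers of the flavin and the iron-sulfur clusters, had a difference below 0 (median -0.20), and 3 fell. Ndufs1, the largest iron-sulfur subunit, read 8.76, 8.66 and 8.90 in oil uterus and 8.33, 8.49 and 8.53 in E2 uterus. Every E2 array lay below every oil array, and the log2 fold change was -0.33 (SE 0.08, adjusted p = 0.0117 by limma). Ndufs8, whose clusters pass electrons towards the quinone, read 9.62, 9.57 and 9.62 in oil uterus and 9.34, 9.29 and 9.38 after E2, a log2 fold change of -0.27 (SE 0.06, adjusted p = 0.0074 by limma). All oil arrays lay above all E2 arrays. Ndufv1, which binds NADH and the flavin, read 9.11, 9.08 and 9.20 against 8.82, 8.96 and 8.98, also without overlap, and fell by 0.21 on the log2 scale (adjusted p = 0.0332 by limma). Ndufv2 (-0.18), Ndufs7 (-0.13) and Ndufs3 (-0.06) did not pass the test. The call of Ndufs1 was lost without E2 uterus replicate 1, and that of Ndufv1 without any of oil uterus replicates 1 and 3 and E2 uterus replicates 1 and 2.

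Of the 28 accessory subunits of complex I, which surround the core, 2 rose and 2 fell. Ndufa2 read 8.77, 8.72 and 8.59 in oil uterus and 8.12, 8.32 and 8.42 in E2 uterus, a fall of 0.41 on the log2 scale (SE 0.09, adjusted p = 0.00559 by limma). Ndufab1, the mitochondrial acyl carrier protein, fell by 0.29 (adjusted p = 0.0168 by limma), a call lost without oil uterus replicate 3 or E2 uterus replicate 1. Ndufv3, a small subunit beside the NADH site, moved the other way from its neighbour Ndufv1. It read 8.07, 8.22 and 8.16 in oil uterus and 8.58, 8.52 and 8.43 in E2 uterus, and rose by 0.36 (SE 0.07, adjusted p = 0.00217 by limma). Ndufa6, a partner of the acyl carrier protein, rose by 0.30 (adjusted p = 0.00696 by limma) from 9.20, 9.07 and 9.28 to 9.46, 9.53 and 9.48. The remaining 24 lay between -0.26 (Ndufb6) and 0.15 (Ndufa7).

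The assembly factors had the highest share of calls of any class, 6 of 8. Ndufaf4, which acts with Ndufaf3 early in complex I assembly, read 6.96, 6.81 and 7.51 in oil uterus and 6.53, 6.69 and 6.53 in E2 uterus, and fell by 0.51 (SE 0.14, adjusted p = 0.0183 by limma). Oil uterus replicate 3 lay 0.62 above the mean of the other 2 oil arrays for this gene, and without both oil arrays numbered 3 the fall was 0.31 (adjusted p = 0.0163 by limma). The call was lost without E2 uterus replicate 1 or 3. Ndufaf3 itself read 8.12, 7.99 and 8.16 in oil uterus and 8.03, 8.07 and 8.25 after E2, with overlapping arrays. Ndufaf5, an enzyme that modifies a core subunit, fell by 0.42 (adjusted p = 0.00446 by limma), from 6.21, 6.29 and 6.47 to 5.90, 5.78 and 6.03. Ndufaf6 fell by 0.41, Ndufaf7, a methyltransferase for a core subunit, by 0.32, and Ndufaf1, an early assembly factor, by 0.30. The calls of Ndufaf6 (adjusted p = 0.116 by limma) and Ndufaf7 (adjusted p = 0.0605) were lost when both oil arrays numbered 3 were left out, and also without E2 uterus replicate 1. Cox7a2l rose by 0.38 (adjusted p = 0.014 by limma), from 8.21, 8.26 and 8.00 to 8.54, 8.50 and 8.57, a call lost without oil uterus replicate 3. All of these but Ndufaf1, Ndufaf3 and Cox7a2l had means below the level of Sry.

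No gene of complex II, the succinate dehydrogenase of the citric acid cycle, passed the test with E2 in uterus. Sdha, its flavin subunit, read 10.17, 10.15 and 10.05 in oil uterus and 10.04, 10.04 and 10.12 in E2 uterus. The differences were -0.05 for Sdha, -0.08 for the iron-sulfur subunit Sdhb, and 0.02 and 0.01 for the membrane anchors Sdhc and Sdhd, with SEs between 0.06 and 0.11.

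In complex III, 2 of 8 genes fell and none rose. Uqcrfs1, the Rieske iron-sulfur protein, read 7.30, 7.36 and 7.54 in oil uterus and 7.15, 7.14 and 7.13 in E2 uterus, and fell by 0.26 (SE 0.07, adjusted p = 0.023 by limma). The groups did not overlap, but the call was lost without oil uterus replicate 3 or any E2 uterus array. Uqcrc1, a core subunit, fell by 0.17 (adjusted p = 0.0452 by limma), with 8.95, 8.94 and 8.98 against 8.74, 8.77 and 8.84. Its arrays did not overlap, yet the call was lost when almost any array was left out and kept in 2 of 12 such fits. The other core subunit, Uqcrc2, read -0.07, and the hinge protein Uqcrh read 0.19 with E2 arrays above all oil arrays but no call (adjusted p = 0.0791 by limma).

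**Figure D2:**
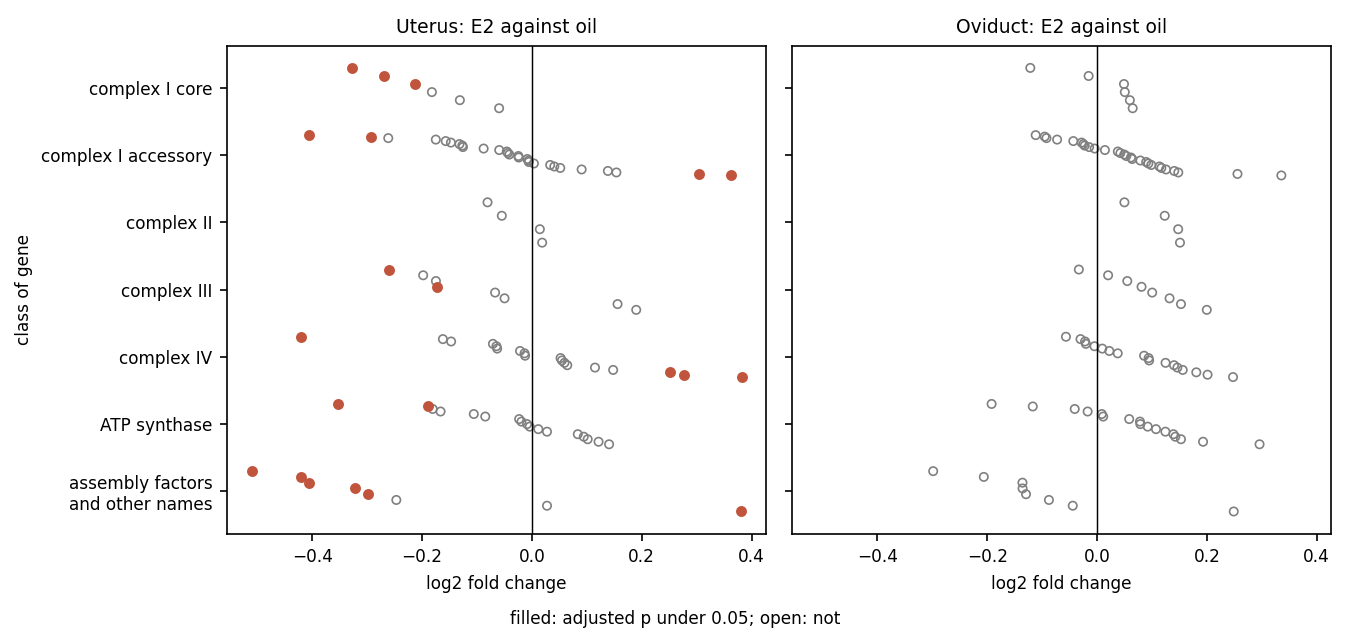
Log2 fold change of E2 against oil (horizontal axis) for each gene in 7 classes (vertical axis, genes spread within a class by size), in uterus (left) and oviduct (right), with filled points at an adjusted p under 0.05. In uterus all 6 core complex I genes lie left of 0. There 5 of 8 genes in the class of assembly factors and other names are called lower, whereas no gene is called in oviduct.

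In complex IV, 3 of 18 genes rose and 1 fell, and the isoforms of subunit IV moved in opposite directions. Cox4i1, the widespread form of subunit IV, read 8.78, 8.67 and 8.80 in oil uterus and 9.06, 9.04 and 8.98 in E2 uterus, and rose by 0.28 (SE 0.07, adjusted p = 0.0115 by limma). Cox4i2, the form known from lung and from low oxygen, read 6.84, 6.99 and 7.01 and then 6.55, 6.57 and 6.46, and fell by 0.42 (SE 0.07, adjusted p = 0.00138 by limma). The groups did not overlap for either gene, and both calls held with any array left out. Cox4i2 lay below the Sry level on every array, so the size of its fall is uncertain. On each array the log2 value of Cox4i1 less that of Cox4i2 lay between 1.68 and 1.94 in oil uterus, 2.47 and 2.52 in E2 uterus, 2.42 and 2.62 in oil oviduct and 2.65 and 2.91 in E2 oviduct. As each probe set has a scale of its own, only the shift between groups can be read from it. Among the isoforms of subunit VIII, the widespread Cox8a rose by 0.25 (adjusted p = 0.0307 by limma) and the muscle form Cox8b by 0.38 (adjusted p = 0.0234). Cox8a read 10.25, 10.05 and 9.98 in oil uterus and 10.32, 10.35 and 10.36 after E2. Cox8b read 5.87, 5.81 and 5.69 and then 6.36, 6.11 and 6.04. It lay below the Sry level throughout and was highest on E2 uterus replicate 1. Neither call held without oil uterus replicate 2, oil uterus replicate 3 or E2 uterus replicate 1. Cox8c, the third form, differed by 0.06 and also lay below the Sry level.

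The other isoform sets of complex IV gave no call in the E2 uterus. Cox6a1 (-0.01) and Cox6a2 (0.05), Cox6b1 (0.11) and Cox6b2 (-0.06), Cox7a1 (-0.06) and Cox7a2 (-0.01), and Cox7b (-0.07) and Cox7b2 (0.15) all lay within 0.15 of 0 on the log2 scale. Cox6a2, Cox6b2, Cox7a1 and Cox7b2 had means below the level of Sry, so their small differences do not show that these isoforms were unchanged. Ndufa4, placed in complex IV by later structures, differed by 0.06, and its low-oxygen paralogue Ndufa4l2 by -0.16 with overlapping arrays.

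**Figure D3:**
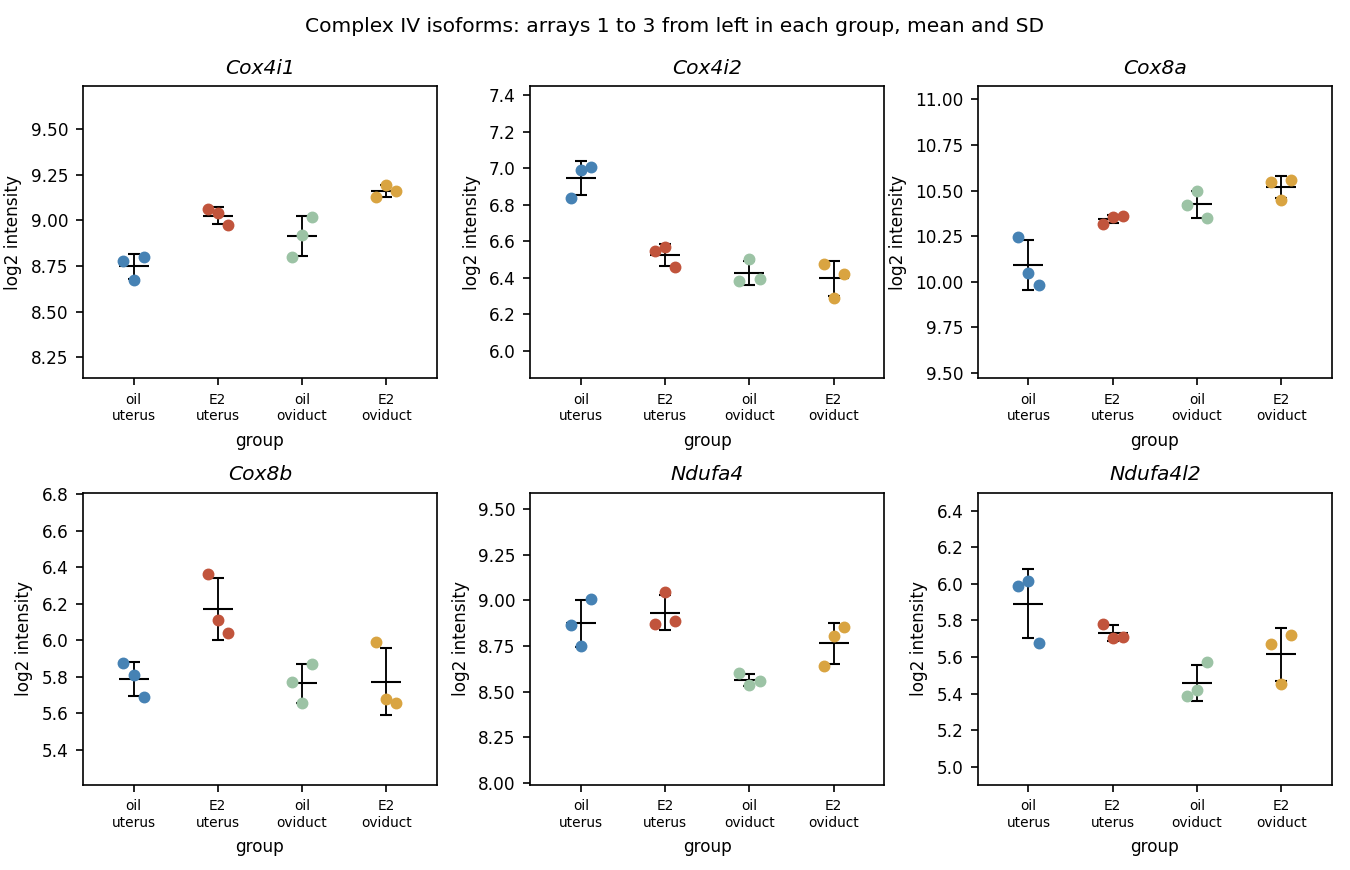
Log2 intensity (vertical axis, each panel spanning the same range of 1.6) of 6 complex IV genes on the 3 arrays of each group (horizontal axis), with the group mean and SD. Cox4i1 was 8.67 to 8.80 in oil uterus and 8.98 to 9.06 in E2 uterus, while Cox4i2 was 6.84 to 7.01 and 6.46 to 6.57.

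The ATP synthase had 2 lower calls among 17 genes and both concern subunit c, the rotor ring. Atp5g1, Atp5g2 and Atp5g3 encode the same mature protein with different import sequences. Atp5g1 fell by 0.35 (SE 0.11, adjusted p = 0.0354 by limma), from 9.47, 9.41 and 9.61 to 9.17, 9.08 and 9.18, and Atp5g3 by 0.19 (SE 0.06, adjusted p = 0.0441), from 9.61, 9.50 and 9.60 to 9.35, 9.37 and 9.42. Atp5g2 read 10.88, 10.87 and 10.79 and then 10.90, 10.96 and 10.99, all E2 arrays being higher, with a difference of 0.10 that was not called. The Atp5g1 call was lost without any of 5 uterine arrays and the Atp5g3 call without any of 10 arrays. The catalytic beta subunit Atp5b differed by -0.09 and the alpha subunit Atp5a1 by -0.18 (adjusted p = 0.0654 by limma). The stalk subunit Atp5pb read -0.17 (adjusted p = 0.0573).

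Of the 21 uterine calls, 8 held in each of the 12 fits that left out an array: Cox4i1, Cox4i2, Ndufa2, Ndufa6, Ndufaf1, Ndufaf5, Ndufs8 and Ndufv3. Leaving out oil uterus replicate 3 gave 3 higher and 7 lower members, and leaving out E2 uterus replicate 1 gave 4 and 6. A fit of the uterine arrays alone gave 5 and 8, and array weights gave 7 and 29. Without both oil arrays numbered 3 the counts were 4 and 10, and without E2 uterus replicate 3, where adipocyte genes were high, they were 5 and 12. No called member changed sign under these settings, but some small uncalled values did: the Sdhc difference of 0.02 was -0.09 without oil uterus replicate 3, and the Sdhd difference of 0.01 was -0.02 without oil uterus replicate 2.

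In the oviduct, E2 gave no call among the members, against 0.291% of all genes (0.160% higher, 0.130% lower) and 0.428% of other genes in the middle level range, by limma. 8 members had an unadjusted p under 0.05. With array weights 1 was called, Cox4i1, against 1.32% of all genes. The member differences ran around a median of 0.06, against -0.01 for all genes, with 60 above 0 and 29 below. Signs and unadjusted p-values were not counted over all genes. E2 and oil arrays did not overlap for 16 higher and 9 lower members, against 17.4% of all genes (8.31% higher, 9.07% lower). E2 oviduct replicate 3 was above both other arrays of its group for 62 of the 89 members, and without it the median was 0.04. Oil oviduct replicate 3, the array high in corpus luteum genes, was above both others of its group for 52 members. Without that oil array the median was 0.07. Cox4i1 read 8.80, 8.92 and 9.02 in oil oviduct and 9.13, 9.20 and 9.16 in E2 oviduct, so that the groups did not overlap, at a difference of 0.25 (SE 0.07, adjusted p = 0.225 by limma). Ndufv3 read 8.57, 8.53 and 8.48 and then 8.75, 8.74 and 8.87 (0.26, adjusted p = 0.202), and Cox7a2l read 8.34, 8.49 and 8.08 and then 8.55, 8.53 and 8.57 (0.25, adjusted p = 0.408). The E2 arrays lay above the oil arrays for all of these. Ndufa1, a small membrane subunit of complex I, had the largest positive value among the subunits, 0.34, with a low oil array (6.32 on replicate 2 against 6.64 and 6.91). Ndufaf4 had the lowest value, -0.30, reading 6.51, 6.38 and 6.55 in oil oviduct and 6.16, 6.20 and 6.20 after E2. Atp5k, a membrane subunit of the ATP synthase, had the lowest among the subunits, -0.19. In the complex I core Ndufs7 lay farthest from 0 (-0.12), with all E2 arrays below all oil arrays, and in the ATP synthase Atp5e, a small central stalk subunit, did so (0.30) with overlapping arrays. The 4 complex II genes all lay above 0, between 0.05 and 0.15.

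The E2 effect differed between the tissues for 4 members, all higher in oviduct relative to uterus (limma interaction term). That is 4.49% of the members against 11.5% of all genes (5.77% higher, 5.71% lower). Within the middle level range 2 of 45 members (4.44%) and 16.9% of other genes were called. Uqcrfs1 had the lowest adjusted p. It was lower in every E2 array in uterus (above) and higher in every E2 array in oviduct, where it read 6.81, 6.95 and 7.00 in oil and 7.13, 7.09 and 7.14 in E2. The effects were -0.26 and 0.20, and their difference was 0.46 (SE 0.11, adjusted p = 0.0161 by limma), called with any array left out. Ndufa2 differed by 0.46 (adjusted p = 0.0387 by limma): in oviduct it read 8.55, 8.63 and 8.50 in oil and 8.58, 8.53 and 8.74 in E2. Cox4i2 differed by 0.39 (adjusted p = 0.0343): its oviduct arrays, 6.38, 6.50 and 6.39 in oil and 6.48, 6.29 and 6.42 in E2, overlapped and lay near or below the E2 uterus. Ndufs8 differed by 0.33 (adjusted p = 0.0321), with 9.31, 9.36 and 9.36 in oil oviduct and 9.40, 9.32 and 9.51 in E2 oviduct. The calls of the latter 3 were each lost in 8 or 9 of 12 fits that left out an array. Without oil oviduct replicate 3, the array high in corpus luteum genes, 4 members were called, 2 of them shared with the main fit. Uqcrfs1 and Cox4i2 had means below the level of Sry, so the size of their differences is uncertain. The count was 2 without oil uterus replicate 1 and 1 without any of E2 uterus replicates 1 and 2, oil oviduct replicate 1 and E2 oviduct replicates 1 and 3. Without oil uterus replicate 1, Atp5k was called in the other direction. Cox4i1 (-0.03) and Ndufv3 (-0.11) had no detectable difference in effect. In the same term 7 of 8 epithelial genes were called lower and 3 of 6 endothelial genes higher, and their part in these differences was not tested. Over all members the median of the interaction was 0.09, against 0.01 over all genes. Over members it was 0.05 without E2 oviduct replicate 3 and 0.12 without oil oviduct replicate 3. 34 members read below 0 in uterus and above 0 in oviduct, 5 the reverse. These pairs of signs were not counted over all genes, so no result about the members is read from them.

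**Figure D4:**
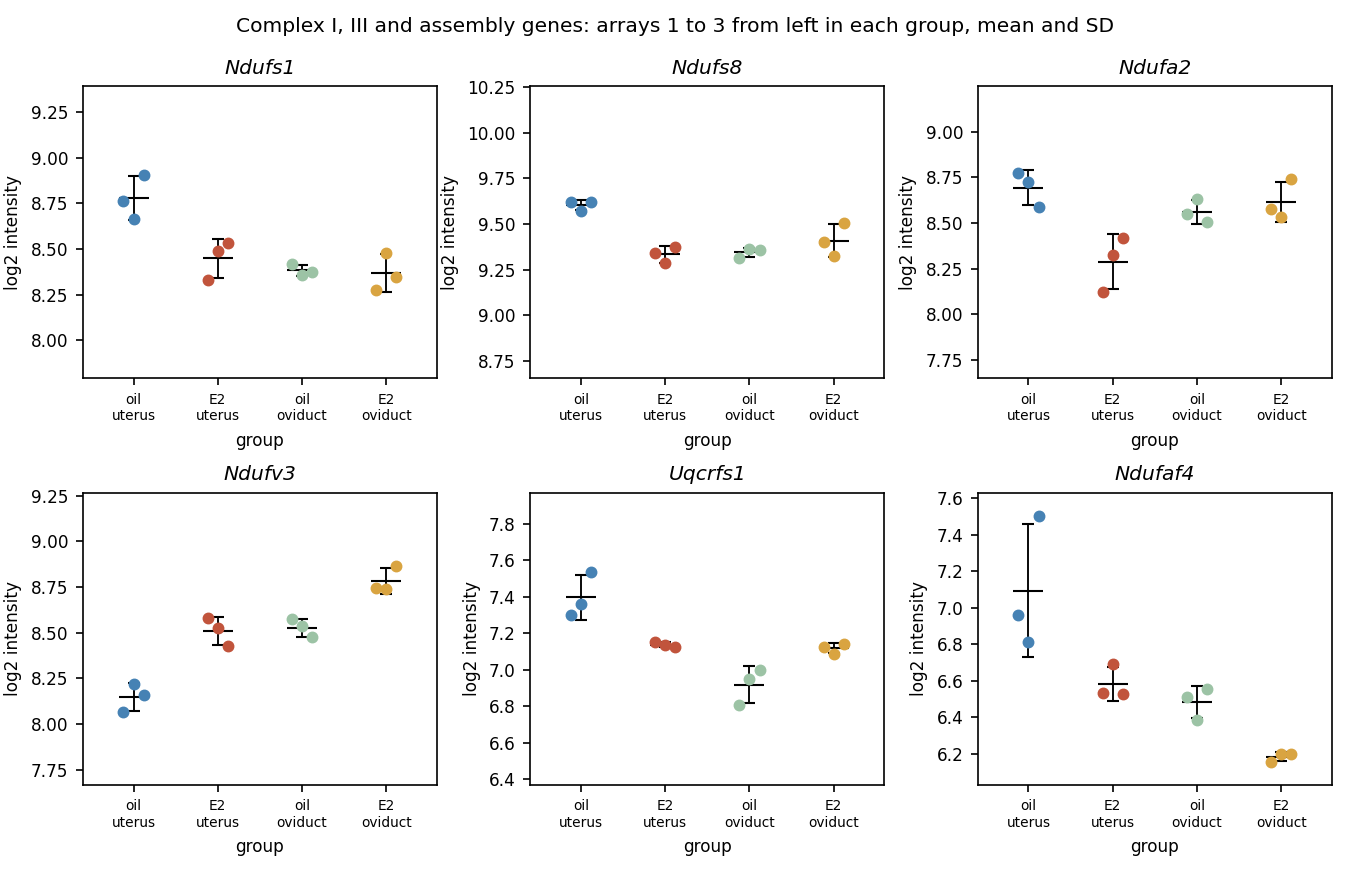
Log2 intensity (vertical axis, each panel spanning 1.6) of 6 genes of complex I, complex III and complex I assembly on the 3 arrays of each group (horizontal axis), with the group mean and SD. Ndufs8 and Uqcrfs1 were high in oil uterus (9.57 to 9.62 and 7.30 to 7.54), Ndufa2 was low in E2 uterus (8.12 to 8.42), and Ndufaf4 was low in E2 oviduct (6.16 to 6.20).

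In oil mice the oviduct had lower values than the uterus for much of complex III and the core of complex I. 7 members were called higher and 25 lower in oviduct, 36.0% of the members against 38.7% of all genes (17.3% higher, 21.5% lower). Within the middle level range 42.2% of members and 52.5% of other genes were called. The arrays of the tissues did not overlap for 9 higher and 32 lower members, against 46.6% of all genes (20.3% higher, 26.4% lower). Centring each array on its median gave 4 higher and 30 lower calls, and 4 were called higher without oil uterus replicate 1 or 2 or oil oviduct replicate 2. The members' median difference was -0.10, against -0.04 for all genes. Endothelial genes (6 of 6) and stromal genes (6 of 8, from a list that includes Hoxa11) were also called lower in oil oviduct. Epithelial genes (7 of 8, median 1.17), ciliated cell genes (8 of 8) and adipocyte genes (4 of 5, median 1.28) were called higher. Their part in these differences was not tested.

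In complex III, 5 of 8 genes were called lower (class median -0.34). Uqcrfs1 read 6.81, 6.95 and 7.00 in oil oviduct against 7.30, 7.36 and 7.54 in oil uterus, a difference of -0.48 (SE 0.07, adjusted p = 0.000309 by limma). Uqcrc1 read 8.60, 8.56 and 8.66 against 8.95, 8.94 and 8.98 (-0.35, adjusted p = 0.000439). The small subunits Uqcrq (-0.45), Uqcrb (-0.34) and Uqcr10 (-0.34) were lower too, whereas Uqcrc2 (-0.04), Uqcrh (-0.03) and Uqcr11 (0.04) did not pass the test. All 5 calls held with any array left out.

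In the complex I core, 4 of 6 genes were called lower and 1 higher. Ndufs1 (-0.40, adjusted p = 0.00247 by limma), Ndufv2 (-0.35), Ndufs8 (-0.26) and Ndufv1 (-0.24) were lower. Ndufs7, whose cluster lies next to the quinone, read 11.12, 11.14 and 11.22 in oil oviduct against 10.92, 10.95 and 11.06 in oil uterus, a difference of 0.18 (adjusted p = 0.0327) that was lost without any of 4 oil arrays. Among accessory subunits, Ndufa5 was lower by -0.45, reading 6.32, 6.32 and 6.37 against 6.93, 6.63 and 6.79, and Ndufv3 (0.38), Ndufa11 (0.29) and Ndufa6 (0.20) were higher. The Ndufa6 call was kept in 5 of 12 fits that left out an array.

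Cox4i2 was lower in oil oviduct by -0.52 (SE 0.07, adjusted p = 0.000168 by limma), without overlap, whereas Cox4i1 (0.16) did not pass the test. Both members of another pair were lower: Ndufa4, at 8.60, 8.54 and 8.56 against 8.87, 8.75 and 9.01 (-0.31), and Ndufa4l2, at 5.39, 5.42 and 5.57 against 5.99, 6.01 and 5.67 (-0.43). Cox8a was higher by 0.33 (adjusted p = 0.00463) and Cox6c lower by -0.25. In the ATP synthase the membrane subunits Atp5mpl (-0.40) and Atp5l (-0.38) and the stalk subunit Atp5o (-0.34) were lower, and Atp5j was higher by 0.16, a call lost in every fit that left out an array. Of complex II, Sdhb was lower (-0.25), a call lost without oil uterus replicate 3. Among assembly factors Ndufaf3 was higher by 0.60 (8.43, 8.53 and 9.11 against 8.12, 7.99 and 8.16) and Ndufaf4 lower by -0.61. The Ndufaf3 value on oil oviduct replicate 3, the array high in corpus luteum genes, lay above the other 2, and without both oil arrays numbered 3 its difference was 0.42 (adjusted p = 0.00425).

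In E2 mice 11 members were higher and 9 lower in oviduct than in uterus, 22.5% against 34.1% of all genes (15.2% higher, 18.9% lower). Within the middle level range 24.4% of members and 47.0% of other genes were called. The arrays did not overlap for 22 higher and 14 lower members, against 49.8% of all genes (21.1% higher, 28.7% lower). Smooth muscle genes (6 of 8), endothelial genes (4 of 6) and macrophage genes (4 of 6) were called lower in E2 oviduct as well. Of 8 stromal genes 6 were lower and 1 higher, and of 8 epithelial genes 2 were lower and 2 higher. Ciliated cell genes (8 of 8) and adipocyte genes (4 of 5) were called higher. The stromal list includes Hoxa11, used above as a gene of the uterus. The part of these cell types was not tested. Quantile normalization gave 9 higher and 12 lower members. The count of higher members was 5 without E2 uterus replicate 1 or 2 and 4 without E2 oviduct replicate 3, and array weights gave 27 higher and 14 lower. 7 genes were called lower under both treatments: Atp5l, Atp5mpl, Ndufa5, Ndufaf4, Uqcr10, Uqcrb and Uqcrc1. 5 genes were called higher under both: Atp5j, Ndufa11, Ndufaf3, Ndufs7 and Ndufv3. The same overlap was not counted over all genes, so it cannot be read as a trait of the members. Atp5k had the largest difference among subunits, -0.56 (SE 0.09, adjusted p = 0.000601 by limma), with 6.72, 6.72 and 6.63 in E2 oviduct against 7.13, 7.30 and 7.31 in E2 uterus. Ndufa2 was higher by 0.33, Atp5g1 by 0.33 and the complex III subunit Uqcr11 by 0.31. Ndufaf3 (0.53), Ndufv3 (0.27), Ndufa11 (0.27), Ndufc2 (0.26), Atp5pb (0.24), Ndufs7 (0.19) and Atp5j (0.17) were the other higher calls apart from Sdha. Of 12 fits that left out an array, Ndufc2 was called in 4, Atp5g1 and Atp5j in 6 each and Ndufs7 in 7. Ndufa5 (-0.45), Atp5l (-0.39), Atp5mpl (-0.35), Uqcr10 (-0.34), Uqcrb (-0.27) and Uqcrc1 (-0.21) were lower. Sdha was higher by 0.23 (adjusted p = 0.0111), at 10.28, 10.30 and 10.31 against 10.04, 10.04 and 10.12. Cox8b was lower by -0.40, a call lost without E2 uterus replicate 1 or E2 oviduct replicate 2 or 3. The Ndufaf4 call (-0.40) was kept in 3 of 12 fits that left out an array. Uqcrfs1 (-0.02), Cox4i2 (-0.13), Ndufs8 (0.08) and Ndufs1 (-0.08), which were called lower in the oviduct of oil mice, were not called here.

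**Figure D5:**
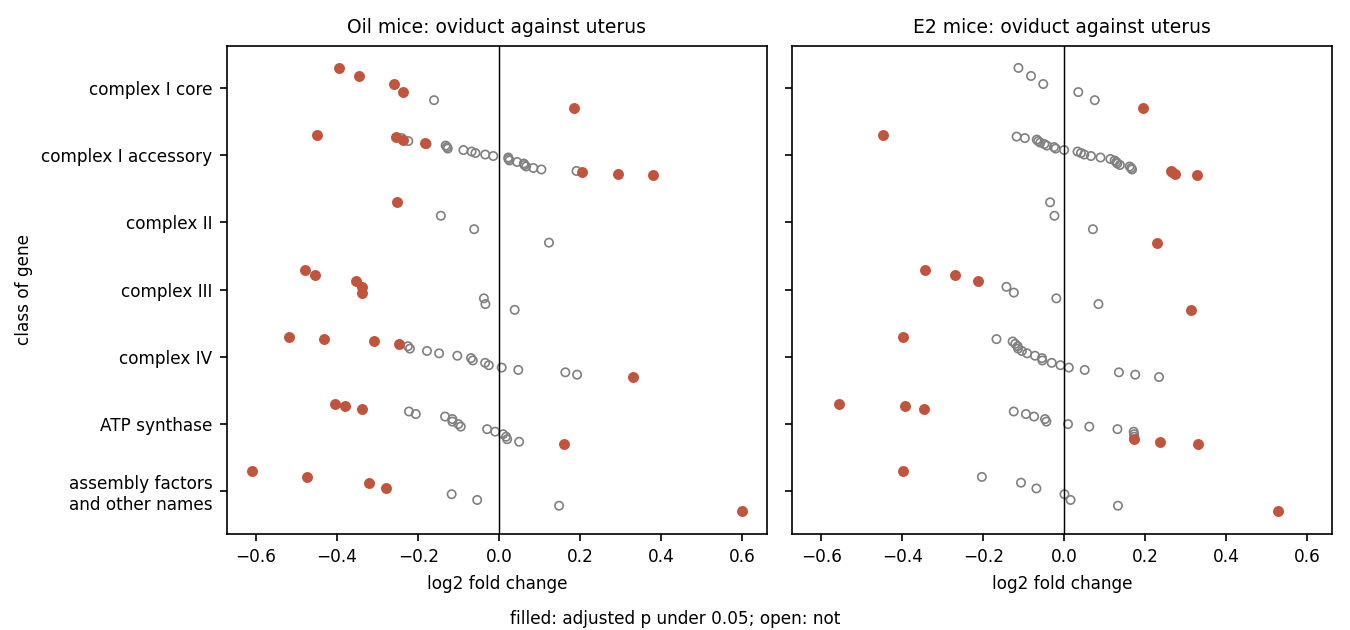
Log2 fold change of oviduct against uterus (horizontal axis) for each gene in 7 classes (vertical axis), in oil mice (left) and E2 mice (right), with filled points at an adjusted p under 0.05. Complex III has 5 lower calls in oil mice and 3 in E2 mice, and the complex I core has 4 and 0.

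Probe sets of the same gene gave a check on single values. Of 17 members with several probe sets, 12 had uterine E2 differences of the same sign on all of them, and the median range between probe sets was 0.04. Atp5h, Atp5md, Ndufa11, Ndufb11 and Uqcr11 had mixed signs, and Uqcr11 had the largest range, 0.29, so its values here depend on the probe set. The 2 probe sets of Atp5g1 read -0.35 and -0.34. For oil oviduct against oil uterus, 11 of the 17 had the same sign on all probe sets. Atp5g1, Atp5h, Atp5md, Atp5pb, Cox5b and Ndufc1 had mixed signs there. Uqcr11 again had the largest range, its probe sets reading 0.04 and 0.30. Whether any probe set also reads a pseudogene copy was not tested.

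The rest of the mitochondrial programme was read from lists of known genes, whose counts in the E2 uterus stand against 12.4% of all genes called higher and 14.3% lower. The 10 of 35 assembly genes and 5 of 18 fatty acid oxidation genes called there are near the 26.7% called in either direction. Of the 13 subunits encoded in mitochondrial DNA, 2 were measured (ND3 and COX2), and neither was called with E2. Cytochrome c (Cycs), the carrier between complexes III and IV, fell in the E2 uterus by 0.47 (SE 0.07, adjusted p = 0.000633 by limma), and cytochrome c1 (Cyc1) by 0.25. Atpif1, the inhibitor of the ATP synthase, rose by 0.22. The Cycs effect differed between tissues by 0.44 (adjusted p = 0.0203). Among 35 measured assembly factors outside the rule, 2 rose and 8 fell, with falls of 0.41 for Bcs1l, which inserts the Rieske protein into complex III, and for the complex IV factor Cox18, and rises of 0.23 for Cox14 and 0.22 for Surf1. Of 16 citric acid cycle genes, 1 rose and 8 fell, led by Idh3a (-0.45), Dld (-0.43) and Fh1 (-0.36). Of 24 carrier and import genes, 1 rose (Slc25a13, 0.92) and 11 fell, led by the chaperones Hspd1 (-0.90), Hspe1 (-0.60) and Hspa9 (-0.49). Fatty acid oxidation gave 3 rises and 2 falls among 18 genes.

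Of 22 regulators of mitochondrial genes, 2 rose and 6 fell in the E2 uterus, where 12.4% of all genes were called higher and 14.3% lower. The coactivators Ppargc1a and Ppargc1b rose by 1.04 (SE 0.07, adjusted p = 2.09e-06 by limma) and 0.48, while Myc fell by 1.55 and the related coactivator Pprc1 by 0.69. Gabpb1, the partner of GABPA, fell by 0.44. In oil mice 2 of the 22 were called higher in oviduct and 9 lower, against 17.3% and 21.5% of all genes. Ppargc1a was higher there by 1.43 and the estrogen-related receptor Esrrg by 1.21. Among the lower ones were Myc (-1.46) and Pprc1 (-1.05). The Ppargc1a and Myc effects of E2 differed between the tissues (oviduct minus uterus -0.81 and 1.45, adjusted p = 0.000484 and 1.96e-05). No gene of these pathway lists was called with E2 in oviduct.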

How the data were processed

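Each array gave an intensity per probe set, deposited by the authors and made with RMA per the submitters' processing notes, in which the RMA version is not given. Of 35556 probe sets, those with a single symbol in the platform annotation were used, and where a gene had several, that of highest mean stood for it. Values were log2 transformed here. The 12 arrays were fitted as 4 group means by limma 3.58.1 (R 4.3.3), and two-sided p-values from eBayes were adjusted over 19938 genes by the Benjamini-Hochberg method, with calls at 0.05. Exact tests of 3 against 3 arrays cannot go below p = 0.10, and the number of arrays limits the precision. Genes named were up to 3 per class and direction with the largest called change, the largest value where a class had no call, and set isoform families and catalytic subunits; other members were named after their values were seen. Members and lists were chosen with earlier results of these data known. No set test was run, and genes of like level are described only. The fit was tested on simulated data of 19938 genes. Log2 changes of 1, given to 100 genes, were recovered for 92% (uterus) and 91% (oviduct), and changes of 0.5 for 60% and 48%. Most member E2 differences were smaller, with a median absolute value of 0.11 in uterus and 0.09 in oviduct, and recovery at such sizes was not tested. In the real E2 uterus 5332 genes were called, far more than were changed in the simulation, so its recovery does not carry over directly. Alternatives changed the fit, replicate block, intensity filter, probe set rule, scaling, variance trend, array weights and arrays used. All 89 members matched the gene table. Scan dates, scanner files and other doses were not used here.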

Additional observations from a re-analysis of the deposited data

Results flagged for a closer look

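In 4 members the E2 effect differed between oviduct and uterus by the interaction test (limma, oviduct minus uterus, log2). The differences were 0.46 for Uqcrfs1, 0.46 for Ndufa2, 0.39 for Cox4i2 and 0.33 for Ndufs8. Their size is uncertain for Uqcrfs1 and Cox4i2, which had means below the level of Sry. Only the Uqcrfs1 call held in all 12 fits that left out an array. The calls of Ndufa2 and Ndufs8 were each kept in 4 of these fits and that of Cox4i2 in 3. For Uqcrfs1, the Rieske protein of complex III, the E2 arrays lay below the oil arrays in uterus and above them in oviduct, and for the others the E2 and oil arrays of the oviduct overlapped. 4.49% of members were called against 11.5% of all genes.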

How the results depend on the processing

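No called difference of a named member changed sign, whereas 41 of 194 differences of named members, all uncalled, changed sign under at least 1 alternative (113 of 3898 values). Leaving aside the fits that left out 1 array, 1479 of 1570 values of named members kept their side of the threshold, 37 lost it and 54 gained it; with 1 array left out, 2163 of 2328 kept it, 152 lost it and 13 gained it. The medians over members moved by less than their spread between arrays, but that of oviduct against uterus in E2 mice (-0.02) rose above 0 under 4 alternatives. Counts of called members moved by over 1.5 times as follows, and where the number of arrays fell, fewer samples entered the fit; other causes were not tested. In the E2 uterus, 15 lower became 8 in a fit of that tissue alone and 29 with array weights, which also gave 1 higher call in oviduct. For the interaction, 4 higher became 2 with the replicate block, 8 with the intensity filter, 7 with the variance trend and 17 with array weights. For oviduct against uterus, 7 higher became 4 with median centring in oil mice, and 11 higher and 9 lower became 27 and 14 with array weights in E2 mice. With 1 array left out, the counts ran from 3 to 6 higher and 6 to 16 lower in E2 uterus, 1 to 4 higher and 0 to 1 lower for the interaction, 4 to 6 higher in oil mice and 4 to 12 higher in E2 mice. Equal numbers could mark the same mouse only within a treatment. Between uterus and oviduct, the deviations of replicates 1 to 3 correlated at 0.00, 0.05 and 0.26 in oil mice. In E2 mice they correlated at 0.26, 0.03 and 0.03. These values cannot decide whether the arrays are paired, and whether equal numbers mark the same mouse is not known. The main fit did not treat them as paired. The replicate block moved no other count by over 1.5 times. Rescaling moved the median difference of all genes by at most -0.03. 19 members lay below the highest Y-linked value on all arrays, which limits the size that can be read for them.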
